A study of Homo sapiens with 6 samples.

Results

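The genes described here are nuclear genes named for proteins of the mitochondrial ribosome. Their nascent RNA was measured in HCT116 cells, a long-established line from a human colorectal carcinoma. They were taken by name, as every sense-strand entry whose symbol is MRPL or MRPS followed by digits and at most 1 final letter from A to C. This gave 76 genes of 22798 listed symbols (22984 sense-strand entries), 47 named MRPL and 29 named MRPS. The letters stand for the large and the small subunit, but MRPS18A and MRPS30 encode proteins that sit in the large one. Membership rests on the name alone, so that of MRPS36, for example, does not show that its product is part of the ribosome. All 76 were listed in every library.

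Mitochondria have ribosomes of their own, which make the few proteins encoded by mitochondrial DNA, all of them subunits of the respiratory chain and ATP synthase. The ribosomal RNAs come from mitochondrial DNA, but every protein of the mitochondrial ribosome is encoded in the nucleus, made in the cytosol and imported. These genes are scattered over the chromosomes, are transcribed in nearly all cell types, and encode both relatives of bacterial ribosomal proteins and proteins found only in mitochondria.

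Bru-seq captures RNA labelled with bromouridine and so reads RNA made during the labelling, which was 30 min in all cultures. 2 cultures received 0.01% DMSO, the vehicle, for 4 h. Each treatment had 1 culture: GSTO1 siRNA (siGSTO1, 10 nM, 24 h), C1-27 (1 μM) for 4 h and for 24 h, and C1-14 (10 μM) for 4 h. GSTO1 is the glutathione transferase that C1-27 is meant to inhibit, and C1-14 was used as an inactive analogue. DMSO at 24 h and non-targeting siRNA were not analysed here. The 24 h treatments were therefore set against 4 h DMSO, and their effects cannot be told apart from time in culture or, for siGSTO1, from transfection. The labels do not say whether the DMSO cultures were grown separately, so tests measure only the spread between these 2 libraries. In bulk cultures, fewer cells transcribing a gene and less RNA per cell cannot be told apart.

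The libraries held 18112861 (DMSO culture 1) to 36841146 (C1-27, 24 h) sense-strand counts, and the 76 genes took 0.319% to 0.351% of them. Of 6 epithelial markers, EPCAM, KRT8, KRT18 and KRT19 were at 2.57 RPKM or above in every library, whereas CDH1 was lower (0.321 to 0.617 RPKM) and VIL1 was at or near 0. Of 6 markers of other cell types, CD3E was at 0 in all libraries, PTPRC and COL1A2 were at or near 0, and LYZ was highest, at 0.363 to 0.816 RPKM. KRT8 was called lower after C1-27 at 24 h (0.406 and 0.671 of each DMSO culture; adjusted p = 0.0431, edgeR quasi-likelihood test with Benjamini-Hochberg adjustment). No other marker was called. Of the epithelial markers that passed the filter, 1 was 1.4-fold higher (CDH1) and 1 lower (KRT18) of 5 after siGSTO1 (10.5% and 6.48% of all genes). CDH1, at 0.451 and 0.351 RPKM in DMSO, passed only through its siGSTO1 value and so could only count as higher. After C1-27, 2 of 4 were lower at 4 h and 3 of 4 at 24 h (2.22% and 3.49% of all genes). After C1-14, 1 of 4 was higher (KRT18, where 3.71% of all genes were). DMSO culture 2 was itself 1.4-fold below culture 1 for 3 of 4 (16.3% of all genes). Of the markers of other cell types only LYZ passed the filter, after siGSTO1, at 1.69 times DMSO. With 0.494 and 0.471 RPKM in DMSO, LYZ could pass only in a library where it was above DMSO. COL1A1, below the filter, was 3.12 times DMSO after siGSTO1 (edgeR adjusted p = 0.0957). GSTO1 itself gave 3.51 and 3.72 RPKM in DMSO and 2.70 after siGSTO1, a ratio of 0.747 that did not pass the test (adjusted p = 0.314, edgeR quasi-likelihood test with Benjamini-Hochberg adjustment). Bru-seq reads RNA made during the labelling, so this ratio does not measure how much GSTO1 mRNA or protein was left. Knockdown was not assessed here, and the siGSTO1 culture is called by its label.

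Promoter sequences show what many of these genes share that their names do not fix. RefSeq windows of 300 bases (GRCh38.p14, 250 bases before to 50 after a listed start) were held for 67 of the 76 genes, in 83 windows, because some genes have several listed starts. The 9 genes without a window were MRPL2, MRPL10, MRPL13, MRPL15, MRPL21, MRPL23, MRPL35, MRPS28 and MRPS36. Letters for 6 known motifs were searched on both strands: GCGCATGCG for NRF1, a regulator of many mitochondrial genes, CCGGAAG for the ETS family, AAGATGGC for YY1, CACGTG for the E-box, CCAAT for the CCAAT box and TATAAA for the TATA box. The ETS letters stood in 38.6% of the 83 windows (32), against 12.8% of 22199 windows of protein-coding genes and 10.3% of all 35116 windows. The YY1 letters stood in 27.7% of them (23), against 3.53% and 2.89%. The other 4 motifs were closer to the genome's shares. The CCAAT box was in 33.7% of the genes' windows and 34.7% of coding windows, and the E-box in 10.8% and 8.34%. NRF1 letters were in 3.61% and 2.36%, and the TATA box in 3.61% and 9.47%. The ETS and YY1 letters can overlap by 3 bases, but did so in none of the 83 windows, and 8 genes had both.

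The 7 stretches that follow are the 80 bases before the RefSeq start of genes whose levels are given later, MRPL41, MRPL53, MRPL20, MRPL36, MRPL51, MRPS34 and MRPL40, shown 5′ to 3′ on the gene's strand, with every match to one of the 6 motifs in capitals.
MRPL41 (chr9:137551799-137551878, plus strand): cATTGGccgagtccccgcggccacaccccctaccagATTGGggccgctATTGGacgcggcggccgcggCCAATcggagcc
MRPL53 (chr2:74472681-74472760, minus strand): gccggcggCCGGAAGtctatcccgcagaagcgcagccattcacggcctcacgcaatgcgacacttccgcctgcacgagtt
MRPL20 (chr1:1407294-1407373, minus strand): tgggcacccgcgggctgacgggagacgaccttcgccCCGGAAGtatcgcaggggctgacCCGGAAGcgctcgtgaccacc
MRPL36 (chr5:1799838-1799917, minus strand): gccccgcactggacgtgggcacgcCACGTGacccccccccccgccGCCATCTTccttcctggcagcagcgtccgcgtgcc
MRPL51 (chr12:6493263-6493342, minus strand): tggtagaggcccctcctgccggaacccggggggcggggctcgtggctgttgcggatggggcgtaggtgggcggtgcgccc
MRPS34 (chr16:1773135-1773214, minus strand): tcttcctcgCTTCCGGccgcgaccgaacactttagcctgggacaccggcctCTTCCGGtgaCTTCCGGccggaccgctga
MRPL40 (chr22:19432465-19432544, plus strand): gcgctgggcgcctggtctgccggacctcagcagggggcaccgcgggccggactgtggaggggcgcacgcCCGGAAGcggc

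MRPS34 held the ETS letters at 3 places in its stretch (on the opposite strand, as CTTCCGG), MRPL20 at 2, and MRPL53 and MRPL40 at 1. In MRPL41 the capitals mark 4 CCAAT boxes, 3 of them on the opposite strand (ATTGG), and no ETS letters. MRPL36 had the E-box and the YY1 letters (on the opposite strand, as GCCATCTT), and the MRPL51 stretch had no match. Over all 83 windows there were 43 ETS matches, and 30 began within the 100 bases before the start. Windows of a gene with several starts can overlap, so 1 site can be counted more than once. By gene, 29 of the 67 with a window held the ETS letters.

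The YY1 letters were placed differently. In 16 of the 83 windows, each from a different gene, they lay on the gene's own strand after the start, beginning between base 7 and base 36 of the transcript. Only 1.82% of coding windows held them there. Of these sites, 6 are shown as 30 bases with the YY1 letters in capitals, to let their spacing and flanks be compared.
MRPL20 (chr1:1407260-1407289, minus strand): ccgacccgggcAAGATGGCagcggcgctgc
MRPL51 (chr12:6493223-6493252, minus strand): gggtaaggcccAAGATGGCtgtcttcgcct
MRPS30 (chr5:44808949-44808978, plus strand): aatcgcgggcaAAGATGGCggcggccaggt
MRPS18A (chr6:43687762-43687791, minus strand): aggtttttgAAGATGGCggccctcaaggct
MRPS18B (chr6:30617852-30617881, plus strand): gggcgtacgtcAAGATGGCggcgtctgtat
MRPL46 (chr15:88467359-88467388, minus strand): gagaacgaAAGATGGCggcgcccgtaaggc

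The first base of the match was base 16 of the transcript in MRPL20, 22 in MRPL51, 14 in MRPS30, 10 in MRPS18A, 24 in MRPS18B and 9 in MRPL46. A match of letters is a description and not a bound site, and Bru-seq does not measure binding. The comparison of these shares carries no test. The YY1 letters contain ATG, and whether the matches after the start reach into coding sequence was not checked.

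**Figure D1:**
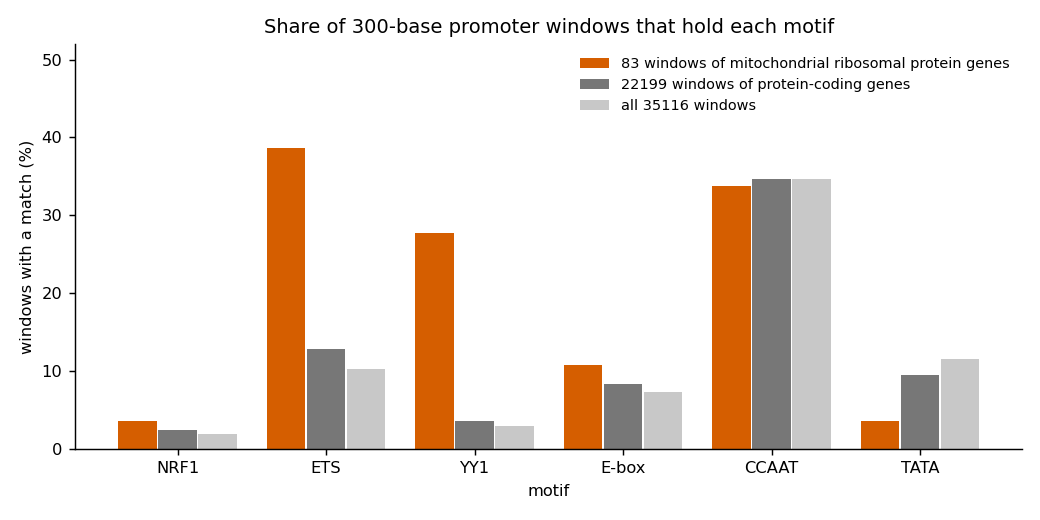
Share of 300-base promoter windows (percent, axis from 0) that hold each of 6 motifs, for 83 windows of mitochondrial ribosomal protein genes, 22199 windows of protein-coding genes and all 35116 windows. ETS (38.6% against 12.8% of coding windows) and YY1 (27.7% against 3.53%) stand above the genome's share, and the CCAAT box (33.7% against 34.7%) does not.

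Many of the genes start close to another gene. In the files' annotation (hg19), 23 of the 76 (30.3%) had the start of a gene on the opposite strand within 1 kb upstream, so that both are transcribed away from each other, against 15.6% of the 7825 genes above 0.5 RPKM in DMSO. In 16 of the 23 the distance was 200 bp or less. One such pair is made of MRPL46 (chr15, minus strand, ending at 89010633) and MRPS11, of the large and the small subunit, whose starts are 51 bp apart. MRPL46 gave 2.77 and 2.84 RPKM in DMSO, 2.35 after siGSTO1, 3.18 and 3.01 after C1-27 at 4 h and 24 h, and 3.02 after C1-14. MRPS11 was lower in each of these libraries, at 1.32 and 1.07 in DMSO, 1.17, 1.14, 1.10 and 1.11. Both sides of the shared start were thus transcribed, and neither moved past 1.4-fold in any treatment. Other partners include the helicase gene HELQ beside MRPS18C (93 bp), the nuclease subunit gene EME2 beside MRPS34 (89 bp), the complex I subunit gene NDUFB5 beside MRPL47 (141 bp) and PSMA2, a proteasome subunit gene, beside MRPL32 (134 bp).

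Antisense counts were low over most of the genes. For the 72 genes with an antisense entry, the median was 0.196 antisense reads per 100 sense reads over all 6 libraries, against 0.269 for 7632 expressed genes. Values of 10 or more were found for 6 genes (10.5% of the expressed genes reached this). MRPL40 was highest, at 33.3 per 100, followed by MRPL16 at 25.3, MRPS14 at 16.8, MRPS22 at 15.7, MRPL41 at 14.7 and MRPS18C at 10.6. These genes were picked by their values. The protocol in the labels describes strand-specific libraries for some samples only, so sense and antisense reads may not be fully separated in the others.

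Levels in DMSO spanned a wide range. The mean RPKM of both cultures ran from 0.235 to 6.89 with a median of 2.29, compared with 1.41 for the 7825 genes above 0.5 RPKM, and 73 of the 76 genes were above 0.5. Median levels were 2.34 RPKM for the genes named MRPL and 2.12 for those named MRPS. The order of the genes was much the same in both cultures (Spearman's rho = 0.92 across 76 genes of the same annotation, which are not independent replicates).

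As listed, the highest 5 genes by mean DMSO RPKM were MRPS23, MRPL3, MRPL27, MRPS5 and MRPL51, but MRPS23, MRPL27 and MRPS5 were counted over only 13.4%, 13.2% and 4.77% of the gene. Without the genes counted over under 25% of their length, the order was MRPL3, MRPL51, MRPS30, MRPS27 and MRPS21, the last 3 with means of 4.54, 4.03 and 3.98 RPKM. MRPS23, a small-subunit protein, gave 7.78 and 6.0 RPKM in the DMSO cultures, 6.05 after siGSTO1, 6.03 and 5.44 after C1-27 at 4 h and 24 h, and 10.3 after C1-14. MRPL3, the relative of bacterial L3, gave 6.07 and 7.01 in DMSO, 4.77 after siGSTO1, 6.96 and 5.72 after C1-27, and 6.70 after C1-14. MRPL27, whose bacterial relative reaches into the peptidyl transferase centre, gave 7.24 and 4.25 in DMSO, 7.64, 4.46, 3.69 and 6.10. Its DMSO cultures differed by more than 1.4-fold from each other, and the treated values ran from below the lower to above the higher of them. MRPS5 gave 5.73 and 3.70 RPKM in DMSO, 5.25 after siGSTO1, 4.01 and 4.02 after C1-27, and 5.91 after C1-14. MRPL51 gave 6.09 and 3.08, 5.39, 3.44, 3.11 and 8.35 in the same order. With a mean and SD of 6.89 ± 1.26 for MRPS23, 6.54 ± 0.660 for MRPL3, 5.74 ± 2.11 for MRPL27, 4.72 ± 1.43 for MRPS5 and 4.59 ± 2.13 for MRPL51 (n = 2), neighbours in this order did not differ beyond their spread.

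At the lower end, MRPL28 gave 0.309 and 0.162 RPKM in DMSO and 0.150 to 0.454 in the treated cultures. MRPL54 gave 0.384 and 0.20 in DMSO, and MRPL55 0.455 and 0.540. Next came MRPL45, which helps to hold the ribosome at the inner membrane, with 0.595 and 0.534, and MRPS31 with 0.601 and 0.594. These last genes are long and rest on at least 364 reads in each library, whereas MRPL28 rests on 21 to 48.

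MRPL12, the protein of the ribosome's stalk, gave 4.24 and 2.77 RPKM in DMSO, 3.45 after siGSTO1, 3.03 and 2.93 after C1-27, and 3.48 after C1-14, so that all treated values lay between the DMSO cultures. The 3 relatives of bacterial S18 are separate genes: MRPS18A, whose product sits in the large subunit despite its name, MRPS18B and MRPS18C. In DMSO they gave 1.74 and 1.73 (MRPS18A), 1.74 and 1.73 (MRPS18B) and 3.04 and 3.22 RPKM (MRPS18C). After siGSTO1, MRPS18A was at 1.81, MRPS18B at 1.28 and MRPS18C at 2.32, ratios of 1.04, 0.736 and 0.741. After C1-27 and C1-14 all 3 stayed between 0.875 and 1.18 of the DMSO mean.

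Not every gene was counted over its whole length, which bears on these levels. 6 genes were counted over under 25% of their length: MRPL10, MRPL27 and MRPS23 on chromosome 17, and MRPL30, MRPS5 and MRPS9 on chromosome 2. MRPS9 was counted over 1458 of 61936 bp, and MRPL27 over 703 of 5335 bp. They lie inside very long entries on the same strand, one named MIR4315 (chr17, 43568147 to 62818220) and 2 named RGPD (chr2, 88071688 to 113181884 on the minus strand and 87178419 to 110605588 on the plus strand). All 109 spliced genes within the first entry and all 69 within each of the others were counted in part, over a median of 16.2%, 7.73% and 8.50% of the gene. The 6 genes had a median DMSO level of 4.02 RPKM. Which of their bases were counted is not given in the sources used here, so their RPKM cannot be ranked with that of genes counted whole. MRPS6 (53.0% counted) and MRPL3 (99.4%) each overlap another listed gene.

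**Figure D2:**
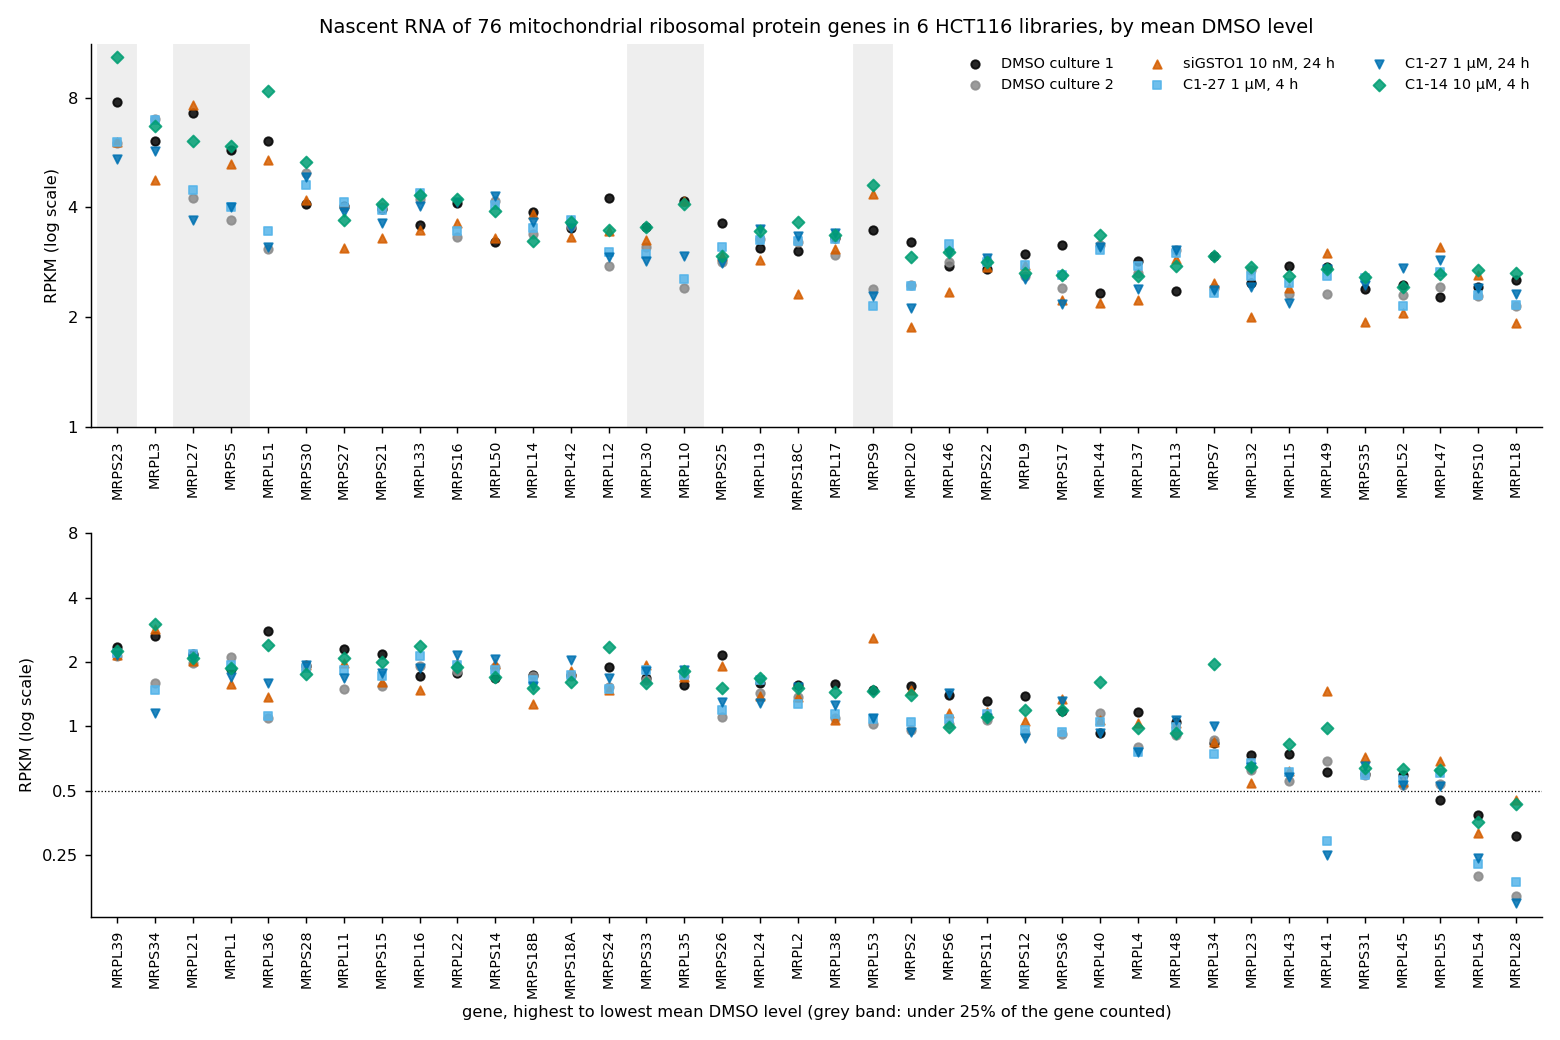
RPKM (log scale) of the 76 genes in each of the 6 libraries, in order of the mean of both DMSO cultures, which runs from 6.89 (MRPS23) to 0.235 (MRPL28). Each point is 1 culture, grey bands mark the 6 genes counted over under 25% of their length, and the dotted line is 0.5 RPKM. For most genes the 6 points lie close together.

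Across the 6 libraries the genes varied little. The highest library was a median of 1.35 times the lowest, compared with 1.37 for all genes above 0.5 RPKM. MRPS22 was the steadiest, with 2.71 and 2.85 RPKM in DMSO, 2.74 after siGSTO1, 2.84 and 2.91 after C1-27 and 2.84 after C1-14. MRPL41 varied most, with a 5.86-fold range. The highest value was in DMSO culture 1 for 23 genes, C1-14 for 22, C1-27 at 24 h for 12, siGSTO1 for 11, and DMSO culture 2 and C1-27 at 4 h for 4 each. The lowest was in siGSTO1 for 21 genes, DMSO culture 2 for 20, C1-27 at 24 h for 16, DMSO culture 1 for 9, and C1-27 at 4 h and C1-14 for 5 each. Highest and lowest libraries were not counted over all genes.

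The spread between controls was largest in short genes. DMSO culture 2 was at least 1.4-fold below culture 1 for 16 of 73 genes (21.9%), where 16.3% of all genes were, and above it by that much for 0, where 2.84% of all genes were. The median log2 ratio of culture 2 to culture 1 was -0.16, and -0.08 over all genes. The 26 of these genes that were counted over under 5 kb had a median of -0.46, and 13 of them were among the 16. All genes of that length had a median of -0.35. In 17 of the 29 short genes, the 3 highest libraries were DMSO culture 1, siGSTO1 and C1-14. The 3 lowest were DMSO culture 2 and both C1-27 libraries. How many of all genes of that length had this order was not counted. The median log2 ratios of all genes of that length to the DMSO mean were 0.12 for siGSTO1 and 0.17 for C1-14. For C1-27 they were -0.14 at 4 h and -0.06 at 24 h. The largest gap between the controls was that of MRPL36, with 2.79 and 1.09 RPKM, and this gene is not among the 17. RNA quality, fragment size and extraction date are not given in the labels, and their part in this was not tested.

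For each treatment, a fold change divides the RPKM of the treated culture by the average of the DMSO pair. It was taken for genes over 300 bp whose treated and control RPKM averaged above 0.5, and changes of 1.4-fold or more were counted. No treatment has a replicate, so a count is a description of that library. The tests used edgeR's quasi-likelihood method on 14431 genes, with the spread taken from the DMSO cultures alone.

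After siGSTO1, most of the 74 genes that passed the filter stayed near their DMSO level, with a median log2 fold change of -0.04 (all genes, 0.00). Of these, 5 passed 1.4-fold. MRPL41, MRPL53 and MRPS9 were higher (3 of 74, 4.05%, where 10.5% of all genes were higher), and MRPL20 and MRPL36 lower (2 of 74, 2.70%, where 6.48% were). Both shares lay below those of all genes. In 34 of the 74 (45.9%) the siGSTO1 value fell between the DMSO cultures, as in 30.6% of all genes.

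MRPL41 (chr9:140446309-140447007), a large-subunit gene of 699 bp, gave 0.612 and 0.689 RPKM in DMSO, 1.47 after siGSTO1, 0.290 and 0.251 after C1-27 at 4 h and 24 h, and 0.985 after C1-14. Its siGSTO1 and C1-14 values were above both controls and its C1-27 values below both. These levels rest on only 10 and 20 reads in DMSO, 27 after siGSTO1, 8 and 8 after C1-27 and 24 after C1-14. Against the pooled DMSO reads the siGSTO1 ratio was 2.20, with an exact 95% Clopper-Pearson interval from 1.26 to 3.83 that covers counting error only. The edgeR log2 fold change was 1.01 ± 0.642 (SE; adjusted p = 0.487, quasi-likelihood test with Benjamini-Hochberg adjustment).

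MRPL53 (chr2:74699085-74699942), a protein found only in mitochondrial ribosomes, gave 1.48 and 1.03 RPKM in DMSO, 2.59 after siGSTO1, 1.08 and 1.09 after C1-27, and 1.46 after C1-14. Only the siGSTO1 library stood above both controls. The fold change was 2.06 (1.75 and 2.51 against each control), on 58 reads, with an edgeR adjusted p of 0.450 (quasi-likelihood, Benjamini-Hochberg). Among the genes that passed the filter, MRPL41 and MRPL53 were the 2 past 1.4-fold against both controls together and each alone, as 9.78% of all genes were. MRPL28, below the filter, was at 1.93 times the DMSO mean (1.47 and 2.81 against each control), on 38 reads.

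MRPS9 gave 3.48 and 2.39 RPKM in DMSO, 4.36 after siGSTO1, 2.15 and 2.29 after C1-27, and 4.60 after C1-14. MRPL20 (chr1:1337276-1342693), the relative of bacterial L20, gave 3.22 and 2.46 in DMSO, 1.88 after siGSTO1, 2.44 and 2.12 after C1-27, and 2.92 after C1-14. It was lowest in the siGSTO1 library, at 0.661 of the DMSO mean (0.583 and 0.763 against each control), with an edgeR adjusted p of 0.359 (quasi-likelihood, Benjamini-Hochberg). MRPL36, at 1.37 RPKM after siGSTO1, lay between its controls, so its ratio of 0.704 turned to 1.25 against culture 2 alone.

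With edgeR, 0 of the 76 genes were called after siGSTO1, where 4.91% of all genes tested were. At an unadjusted p under 0.05 there was 1, MRPL3, where 15.2% of all genes tested were. DESeq2 called 0 of the 76 and 215 of all genes, with 2 of the 76 at an unadjusted p under 0.05. MRPL3 (chr3:131181045-131221860) had 5765 and 11599 reads in DMSO and 5082 after siGSTO1, 4.77 RPKM against 6.07 and 7.01. The ratio was 0.729, the edgeR log2 fold change -0.57 ± 0.267 (SE), and the adjusted p 0.259, the lowest of the 76 (quasi-likelihood, Benjamini-Hochberg). It was lower than both controls, at 0.785 of culture 1 and 0.681 of culture 2, the latter past 1.4-fold. With TMM scaling the ratio to the mean was 0.673, and with DESeq2 size factors 0.655, both past 1.4-fold. The scaling of the libraries moved this comparison as a whole, by -0.11 (TMM) or -0.15 (DESeq2 size factors) on the log2 scale in the median of all genes. With TMM scaling 2 of the genes were higher and 7 lower (2.70% and 9.46%, where 7.14% and 11.2% of all genes were). With DESeq2 size factors 2 were higher and 9 lower (2.70% and 12.2%, where 6.40% and 13.6% were). Against DMSO culture 2 alone 11 were higher and 2 lower (14.9% and 2.70%, where 17.3% and 7.74% were), and against culture 1 alone 3 and 4 (4.05% and 5.41%, where 8.91% and 9.25% were).

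**Figure D3:**
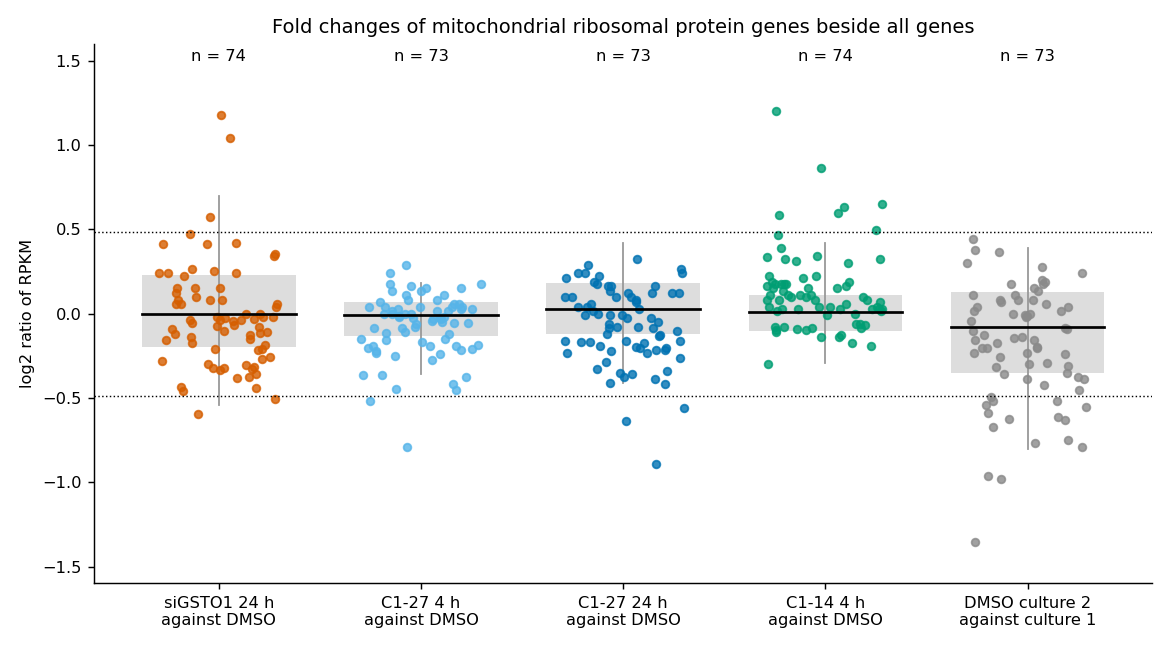
log2 ratio of RPKM of each mitochondrial ribosomal protein gene that passed the filter (points, n above each column), beside all genes that passed (black bar, median; grey box, middle 50%; line, 5th to 95th percentile). Dotted lines mark 1.4-fold. The widest set of points is DMSO culture 2 against culture 1, with 16 genes under the lower line, and C1-14 has 7 above the upper line.

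C1-27 was given at 1 μM for 4 h. Of 73 genes, 0 were 1.4-fold higher (0.457% of all genes) and 2 lower (2.74%, where 2.22% of all genes were), with a median log2 fold change of -0.03 against -0.01 for all genes. Fold changes ran from 0.578 to 1.22, and 46 of the 73 values (63.0%) lay between the DMSO cultures, as in 59.5% of all genes. MRPL36, with 1.12 RPKM against 2.79 and 1.09, was at 0.578 of the mean but 1.03 of culture 2. MRPS34 (chr16:1821896-1823140), needed for a stable small subunit, gave 2.66 and 1.59 RPKM in DMSO and 1.48 at 4 h, a ratio of 0.697 to the mean but 0.934 to culture 2. None of the 73 genes passed 1.4-fold against each control alone, as 0.378% of all genes did. MRPL41 was at 0.446 of the DMSO mean (0.474 and 0.421 against each control), on 8 reads. It is not among the 73, because the average of its treated and control RPKM was not above 0.5. With edgeR 0 were called (0.0208% of all genes), and 0 had an unadjusted p under 0.05 (0.797% of all genes). DESeq2 called 0 of them, and 0 of all genes. Against DMSO culture 1 alone 11 genes were lower (15.1%, and 12.4% of all genes), and against culture 2 alone 0 (0.412% of all genes).

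At 24 h of C1-27, 0 of 73 genes were 1.4-fold higher (3.23% of all genes) and 3 were lower (4.11%, where 3.49% of all genes were). The median log2 fold change was -0.06, and 0.03 for all genes. Between the DMSO cultures lay 29 of the 73 values (39.7%, and 41.6% for all genes). The 3 genes were MRPS34, MRPL27 and MRPL51. MRPS34 was at 1.15 RPKM, its lowest value in any library, and 0.540 of the DMSO mean (0.431 and 0.724 against each control). MRPL27 was at 3.69 RPKM, 0.642 of the mean and 0.867 of culture 2, and MRPL51 at 3.11, 0.678 of the mean but 1.01 of culture 2. None of the 73 passed 1.4-fold against each control alone, as 2.79% of all genes did. The highest fold changes were those of MRPS36 (1.25), MRPL47 (1.22) and MRPL22 (1.20). MRPL47 gave 2.28 and 2.43 RPKM in DMSO, 2.67 at 4 h and 2.87 at 24 h.

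With edgeR 0 of the 76 genes were called at 24 h (0.360% of all genes), and 0 had an unadjusted p under 0.05 (4.28% of all genes). DESeq2 called 0 of the 76 and 18 of all genes. Against DMSO culture 1 alone 15 were lower and 0 higher (20.8% and 0%, where 10.2% and 4.69% of all genes were). Against culture 2 alone 0 were lower and 2 higher (0% and 2.74%, where 2.23% and 6.68% were). MRPL41, which did not pass the filter in either C1-27 library, was at 0.386 of the DMSO mean at 24 h (0.411 and 0.365 against each control). This rests on 8 reads (exact 95% Clopper-Pearson interval of the pooled ratio 0.147 to 0.830, counting error only). Between 24 h and 4 h of C1-27, edgeR called 0 of the genes (0.125% of all genes), with 0 at an unadjusted p under 0.05 (2.90% of all genes). DESeq2 called 0 of the 76 and 5 of all genes. MRPL36 was 1.42 times higher at 24 h than at 4 h, with 107 and 63 reads, and MRPS36 1.39 times.

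With C1-14 at 10 μM for 4 h, all genes past 1.4-fold were higher. Of 74 genes, 7 were higher (9.46%, where 3.71% of all genes were) and 0 lower (1.01% of all genes), and the median log2 fold change was 0.09 (all genes, 0.01). Between the DMSO cultures lay 32 of the 74 values (43.2%, and 51.2% for all genes). The 7 were MRPL34, MRPL51, MRPS9, MRPL40, MRPL41, MRPS23 and MRPS34. All were counted over under 5 kb, where 22.4% of all genes were 1.4-fold higher after C1-14 and 7 of 27 of these genes were. Among the 47 genes counted over 5 kb or more, 0 passed 1.4-fold in either direction. Of all genes counted over 5 to 20 kb, 2.12% were higher and 1.26% lower. At 20 to 50 kb the shares were 0.0921% and 0.230%, and over 50 kb 0.128% and 0.0854%. With shares this low, the 0 does not set these genes apart.

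MRPL34 (chr19:17416477-17417652), the relative of bacterial L34 and a gene of 1176 bp, gave 0.836 and 0.868 RPKM in DMSO, 0.842 after siGSTO1, 0.747 and 1.00 after C1-27, and 1.96 after C1-14. The C1-14 library alone stood apart, with 80 reads against 23 and 42. Its fold change was 2.30 (2.35 and 2.26 against each control), with an exact 95% Clopper-Pearson interval of the pooled ratio from 1.62 to 3.21. The edgeR log2 fold change was 1.20 ± 0.547 (SE), with an unadjusted p of 0.0284 and an adjusted p of 1 (quasi-likelihood, Benjamini-Hochberg).

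MRPL40 (chr22:19420036-19423596), on the long arm of chromosome 22, gave 0.937 and 1.15 RPKM in DMSO, 1.07 after siGSTO1, 1.05 and 0.933 after C1-27, and 1.62 after C1-14. The C1-14 value was the highest, at 1.55 times the DMSO mean (1.73 and 1.41 against each control). Together with MRPL41, at 1.51 times the mean, MRPL34 and MRPL40 were the 3 genes that passed the filter and 1.4-fold against each control, as 2.07% of all genes were. MRPL28, below the filter, was at 1.85 times the mean (1.41 and 2.69 against each control), on 48 reads. MRPL41's interval of 0.829 to 2.62 includes 1.

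MRPL51 (chr12:6601316-6602471), whose values were given above, was at 8.35 RPKM after C1-14 and 6.09 and 3.08 in DMSO. This is 1.82 times the mean, but 1.37 times culture 1 and 2.71 times culture 2. Its edgeR log2 fold change was 0.95 ± 0.419 (SE; unadjusted p = 0.0239, adjusted p = 1, quasi-likelihood, Benjamini-Hochberg). MRPS23 and MRPS9, both counted over part of the gene, were at 1.5 and 1.57 times the mean. MRPS34 was at 3.00 RPKM, 1.41 times the mean and 1.13 times culture 1. With edgeR 0 of the 76 genes were called (0.139% of all genes). For MRPL51 and MRPL34 the unadjusted p was under 0.05, as for 1.61% of all genes. DESeq2 called 0 of the 76 and 2 of all genes. Against culture 2 alone 15 genes were higher and 0 lower (20.3% and 0%, where 7.52% and 0.209% of all genes were). Against culture 1 alone 4 were higher and 2 lower (5.41% and 2.70%, where 4.06% and 7.35% were).

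The lowest fold changes after C1-14 were those of MRPS6 (0.812), MRPS18B (0.875) and MRPL14 (0.887). MRPL14, the relative of bacterial L14, gave 3.89 and 3.38 RPKM in DMSO and 3.23 after C1-14. C1-14 was given at 10 μM and C1-27 at 1 μM, so their values stand side by side without a comparison.

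**Figure D4:**
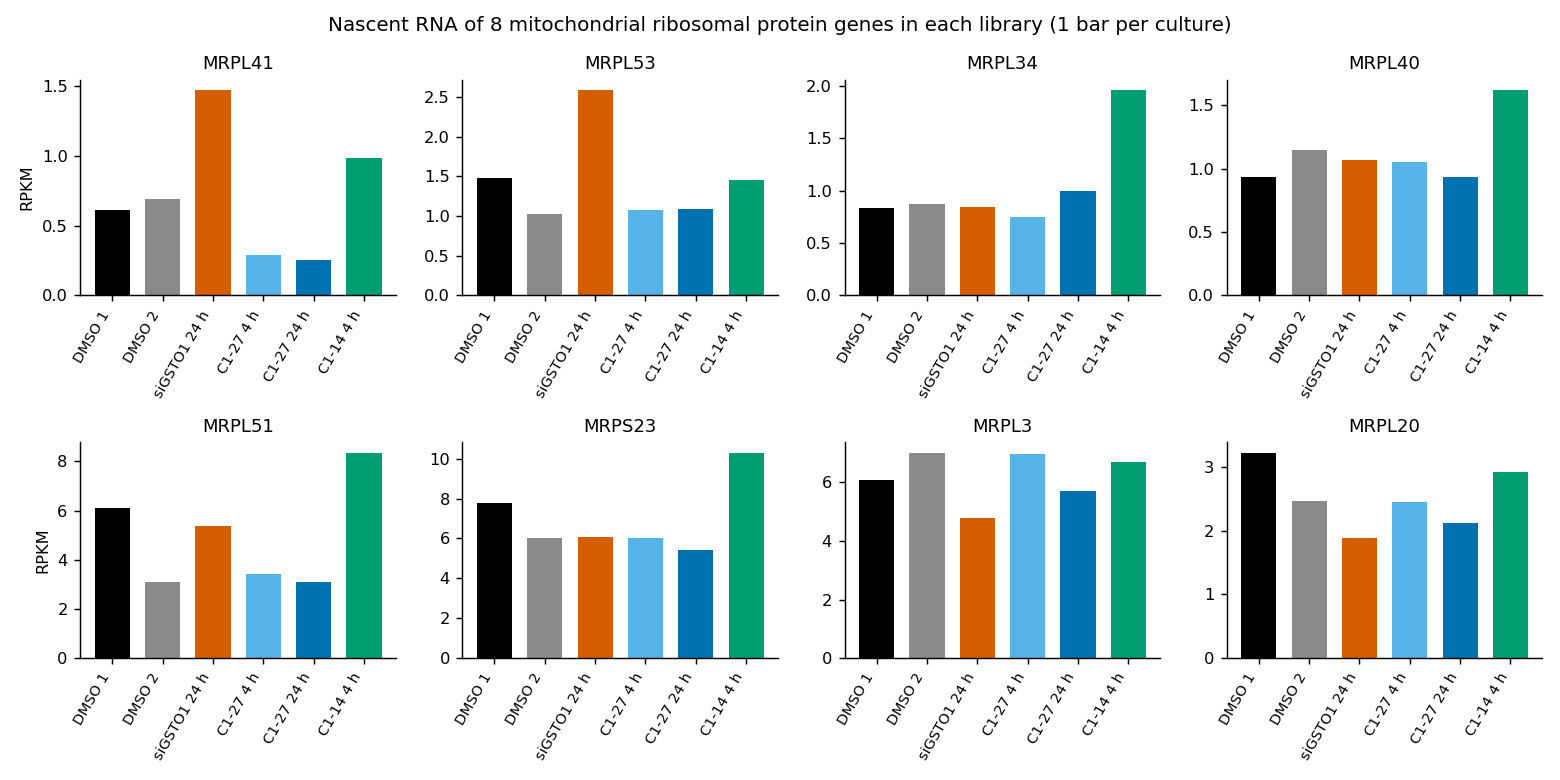
RPKM (axes from 0) of 8 genes in each library, 1 bar per culture and no error bars. MRPL41 and MRPL53 are highest after siGSTO1 (1.47 and 2.59), MRPL34, MRPL40, MRPL51 and MRPS23 after C1-14 (1.96, 1.62, 8.35 and 10.3), and MRPL3 and MRPL20 are lowest after siGSTO1 (4.77 and 1.88).

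Length and fold change were related, least after siGSTO1. Across the genes, Spearman's rho between counted length and log2 fold change was -0.24 after siGSTO1 (n = 74), 0.52 after C1-27 at 4 h (n = 73), 0.45 at 24 h (n = 73) and -0.58 after C1-14 (n = 74). All 4 share the DMSO libraries, and between the DMSO cultures themselves rho was 0.49 (n = 73). For all genes the same values were -0.11, 0.31, 0.17, -0.23 and 0.42. Genes counted over under 5 kb had a median log2 fold change of 0.00 after siGSTO1, -0.19 after C1-27 at 4 h, -0.23 at 24 h and 0.21 after C1-14. All genes of that length had medians of 0.12, -0.14, -0.06 and 0.17. In genes of 5 to 20 kb the medians were -0.13, -0.01, 0.04 and 0.06. Of the genes past 1.4-fold, all 7 after C1-14, all 2 and 3 after C1-27, and 4 of 5 after siGSTO1 were under 5 kb. Among all genes under 5 kb, 22.4% were higher after C1-14, 10.9% and 11.8% were lower after C1-27 at 4 h and 24 h, and 21.9% were higher and 8.20% lower after siGSTO1. The controls differ along the same axis, and the part of treatment in it was not tested.

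**Figure D5:**
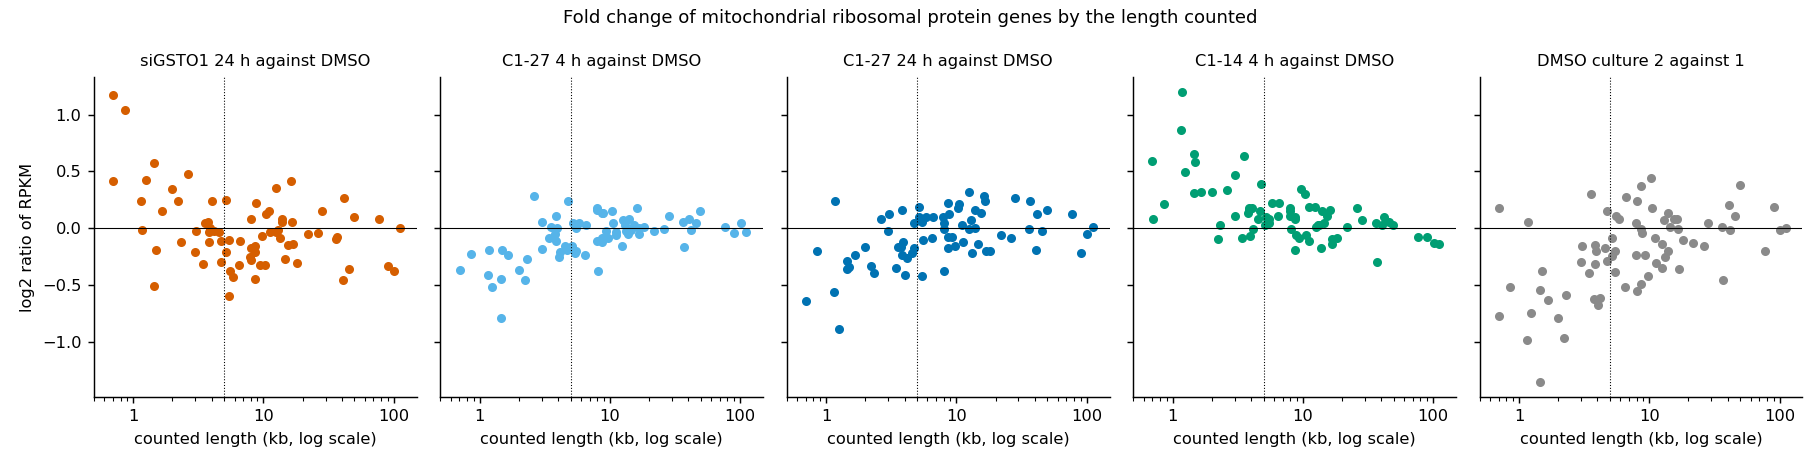
log2 ratio of RPKM of each gene against the length it was counted over (kb, log scale), in 5 comparisons, 1 point per gene, with a dotted line at 5 kb. Points under 5 kb fan out, upward after C1-14 (median 0.21) and downward after C1-27 and between the DMSO cultures (medians -0.19, -0.23 and -0.46).

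Other genes of mitochondrial translation, were taken from lists chosen with earlier results known. Of 7 mitoribosomal proteins with other names, 16 translation factors, 25 assembly factors and 16 genes for the expression of mitochondrial DNA, edgeR called 0 in each treatment. After siGSTO1, 7, 15, 24 and 16 genes of the lists passed the filter, and 3 were 1.4-fold higher and 3 lower (10.5% and 6.48% of all genes). After C1-27 at 4 h 7, 15, 23 and 15 passed, and 1, AURKAIP1, was lower (2.22% of all genes). At 24 h 7, 15, 24 and 14 passed, and again AURKAIP1 alone was lower (3.49% of all genes). After C1-14 7, 15, 23 and 16 passed, and 1 was higher (3.71% of all genes), GADD45GIP1, a large-subunit protein. AURKAIP1, a small-subunit protein with a counted length of 1709 bp, gave 1.70 and 0.877 RPKM in DMSO, 2.54 after siGSTO1, 0.752 and 0.687 after C1-27, and 1.76 after C1-14. It passed 1.4-fold against each control after siGSTO1 (1.49 and 2.90; edgeR adjusted p = 0.371, quasi-likelihood, Benjamini-Hochberg). No other gene of these 4 lists that passed the filter did so in any treatment. MPV17L2, below the filter, was at 0.47 of the DMSO mean after C1-14 (0.391 and 0.588 against each control), on 18 reads.

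DAP3, the small-subunit protein once numbered MRPS29, gave 2.27 and 2.09 RPKM in DMSO, 1.95 after siGSTO1, 2.03 and 2.04 after C1-27, and 2.09 after C1-14. TUFM, the elongation factor that brings tRNA to the mitochondrial ribosome, gave 3.27 and 1.90, 2.74, 2.31, 2.55 and 3.45 in the same order. TFAM, which packages mitochondrial DNA and helps to start its transcription, gave 3.93 and 4.51, 3.70, 4.55, 4.08 and 4.81. POLRMT, the mitochondrial RNA polymerase, gave 0.730 and 0.336, 0.544, 0.380, 0.452 and 0.552, with all treated values between its DMSO cultures. Median log2 fold changes of the 4 lists lay between -0.17 and -0.10 after siGSTO1, between -0.13 and 0.02 after C1-27 at 4 h, between -0.11 and -0.01 at 24 h, and between 0.00 and 0.25 after C1-14.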

How the data were processed

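Bru-seq libraries of 6 HCT116 cultures were analysed. The authors deposited 1 table per library with hg19 positions. The expected counts that the authors deposited give the reads of a gene, exons and introns together, separately for each strand. They carry no normalization, need not be whole, and were rounded for tests. For RPKM, the authors divided those reads by counted length and by the library's mapped reads. The submitters' processing notes name CASAVA 1.8.2, Bowtie 0.12.8, TopHat 1.4.1 and bedtools 2.16.2. The columns for read density and for entries of ambiguous strand were not used.

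Fold changes used RPKM without a pseudocount. The 14431 genes over 300 bp that reached 10 counts in 2 or more libraries were fitted in edgeR 4.0.16 (R 4.3.3) with TMM normalization in 5 groups, 1 residual degree of freedom and a common dispersion of 0.0381, with Benjamini-Hochberg adjustment over all genes of a comparison. DESeq2 1.42.0 was the alternative. The rest used pandas 2.3.3, scipy 1.17.1, numpy 2.4.6 and matplotlib 3.10.9 in Python 3.11.15. Alternatives covered scaling, filters, the pseudocount, the prior and legacy settings of edgeR, each DMSO culture alone and, chosen after seeing the data, genes counted over 5 kb or more.

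The genes, the other lists and the motifs were chosen with earlier results of these data known. Genes named were those past 1.4-fold against both DMSO cultures and each alone, the 3 highest and 3 lowest fold changes per treatment, the 5 highest and 5 lowest levels, any gene called by edgeR, and MRPL12, MRPL41 and MRPS18A to C. Genes given for their antisense share, opposite-strand partner, steadiness or sequence were chosen after their values were seen. Promoter windows came from RefSeq (GRCh38.p14) and were not placed on hg19. Intervals of ratios are exact 95% Clopper-Pearson intervals and cover counting error only.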

Additional observations from a re-analysis of the deposited data

How the results depend on the processing

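No paired analysis was possible because only DMSO has replicate numbers and each treatment is 1 culture. In the edgeR comparisons, 0 of the 76 genes were called under every setting run (other size factors, no count filter, robust prior, legacy fit, DESeq2). Counts past 1.4-fold after siGSTO1 (5) were 9 with TMM scaling, 11 with DESeq2 size factors and 1 among genes counted over 5 kb or more, and 7 to 13 with 1 DMSO culture left out. The median log2 fold change (-0.04) was -0.15 with TMM and -0.19 with DESeq2 size factors, and -0.12 to 0.05 with 1 DMSO culture left out. After C1-27 at 4 h (2) the count was 1 with DESeq2 size factors, 0 among genes counted over 5 kb or more and 0 to 11 with 1 DMSO culture left out. At 24 h (3) it was 5 without the RPKM filter, 0 among genes counted over 5 kb or more and 2 to 15 with 1 DMSO culture left out. After C1-14 (7) it was 0 among genes counted over 5 kb or more and 6 to 15 with 1 DMSO culture left out. Of all genes counted over 5 to 20 kb, 0.461% were higher and 2.30% lower after C1-27 at 4 h. At 24 h 3.34% and 3.47% were, and after C1-14 2.12% and 1.26%. Longer genes had smaller shares in these 3 comparisons. Between the DMSO cultures (16) the count was 3 among genes counted over 5 kb or more, where the median (-0.16) was -0.018. With DESeq2 size factors the median was -0.032. The causes were not tested, apart from the smaller set of genes. With 1 DMSO culture left out, the fold change of MRPL36 ran from 0.489 to 1.25 after siGSTO1 and from 0.402 to 1.03 after C1-27 at 4 h, and that of MRPL51 from 0.510 to 1.01 after C1-27 at 24 h, each turning from lower to higher without culture 1. All other summary values, 81, kept within the spread or within 1.5 times the main count. Genes with few reads, such as MRPL41, are limited by depth.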
